A study of Mus musculus with 18 samples.

Results

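The glucocorticoid receptor gene Nr3c1, 5 genes that glucocorticoids induce or that tune the hormone's action (Fkbp5, Tsc22d3, Zbtb16, Sgk1 and Hsd11b1) and the metallothionein genes Mt1 and Mt2 were followed through 18 RNA-seq libraries of mouse brown adipocytes. These 8 genes were chosen by name out of 45706 in the deposited table, with earlier results of these data known. All 8 passed the filter on low counts, which left 14788 genes for testing.

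The cells were BMC, an immortalised line of murine brown preadipocytes turned into brown adipocytes in culture. Every library, the 0 h group included, came from cells induced with 1 µM dexamethasone, a synthetic glucocorticoid, together with 20 nM insulin, 1 nM triiodothyronine, 0.125 mM indomethacin and 0.5 mM isobutylmethylxanthine. The cocktail was withdrawn on day 2, after which only insulin and triiodothyronine were added, and the experiments took place on day 7. By their labels, 6 libraries were sampled 24 h and 6 were sampled 4 h after 1 µM norepinephrine, and 6 were not induced (0 h). The series design asks which transcripts change once norepinephrine has started thermogenic lipolysis. Each group carries replicate numbers 1 to 6, and all 18 libraries carry the same batch label, 1. No label ties a number to a culture, a plate or a day.

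Glucocorticoids enter the cell and bind the receptor, which leaves its chaperones, moves to the nucleus and binds response elements near target genes. Fat cells can also regenerate active hormone from its inert form inside the cell, through the enzyme that Hsd11b1 encodes. In rodent brown fat, glucocorticoids are known to dampen the adrenergic induction of the uncoupling protein Ucp1. Metallothioneins are small cysteine-rich proteins that hold zinc and copper, and in mice their genes answer to metals, to glucocorticoids and to cold.

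Promoter sequences are shown for the genes in which a searched response element was found in more than 1 copy or in full. RefSeq promoters (GRCm38.p6, 250 bases before to 50 after an annotated start) were listed for 6 of the 8 genes, 13 promoters in all, with no entry matched for Nr3c1 and Zbtb16. Both strands were searched. Capitals in the Mt2 and Mt1 lines mark the core of the metal response element, TGCACNC or TGCGCNC, which the zinc sensor MTF1 binds. Capitals in the Sgk1 line mark the 6-base arm of the glucocorticoid response element, AGAACA, which reads TGTTCT on the other strand. The Mt2 promoter lies at chr8:94172368-94172667, the Mt1 promoter at chr8:94178839-94179138 and this Sgk1 promoter, the fifth of 6, at chr10:21993640-21993939, all on the plus strand.
Mt2: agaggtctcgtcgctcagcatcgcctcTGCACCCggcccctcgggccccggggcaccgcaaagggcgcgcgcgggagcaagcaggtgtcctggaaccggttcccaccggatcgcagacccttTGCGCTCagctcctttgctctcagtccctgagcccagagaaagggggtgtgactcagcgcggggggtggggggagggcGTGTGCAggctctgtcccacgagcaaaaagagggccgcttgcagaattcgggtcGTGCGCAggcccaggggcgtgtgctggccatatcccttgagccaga
Mt1: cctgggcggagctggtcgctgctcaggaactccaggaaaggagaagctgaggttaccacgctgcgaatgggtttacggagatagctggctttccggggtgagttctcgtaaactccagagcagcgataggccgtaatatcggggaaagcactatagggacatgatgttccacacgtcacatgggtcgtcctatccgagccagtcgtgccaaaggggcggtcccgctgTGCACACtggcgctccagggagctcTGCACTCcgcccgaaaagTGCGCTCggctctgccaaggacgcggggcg
Sgk1: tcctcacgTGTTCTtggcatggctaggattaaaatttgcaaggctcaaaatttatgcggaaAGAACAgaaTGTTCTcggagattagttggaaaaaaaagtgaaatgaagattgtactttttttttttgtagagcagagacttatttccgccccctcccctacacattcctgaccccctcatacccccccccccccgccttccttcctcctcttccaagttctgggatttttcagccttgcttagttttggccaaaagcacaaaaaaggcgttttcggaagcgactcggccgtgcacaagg

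The fifth Sgk1 promoter held the full palindrome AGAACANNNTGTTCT at -189 from its start, and 3 of 32851 RefSeq promoters (0.00913%) held one. A further arm stood at -242. Arms alone are common, in 19.0% of promoters, and single ones also stood in Sgk1 promoters 1 and 4 and in Tsc22d3 promoter 2. The Mt2 promoter held 4 metal element cores, at -223, -128, -50 and 5, and the Mt1 promoter held 3, at -23, 3 and 21. The first form of the core is found in 12.6% of promoters and the second in 15.4%. An antioxidant element (TGACNNNGC, in 12.4% of promoters) stood at -79 in Mt2, and the short core of a cAMP response element (TGACG, in 20.8%) at -77 in Mt1. TGACG also stood at -236 in Sgk1 promoter 2 and at -224 in Tsc22d3 promoter 3. Hsd11b1 held 1 metal element core and 1 antioxidant element, and Sgk1 promoter 6 held 1 metal element core. None of the 13 promoters held the full cAMP response element TGACGTCA, found in 1.79% of promoters, and the Fkbp5 promoter held no motif searched. A match describes letters in this window only.

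**Figure D1:**
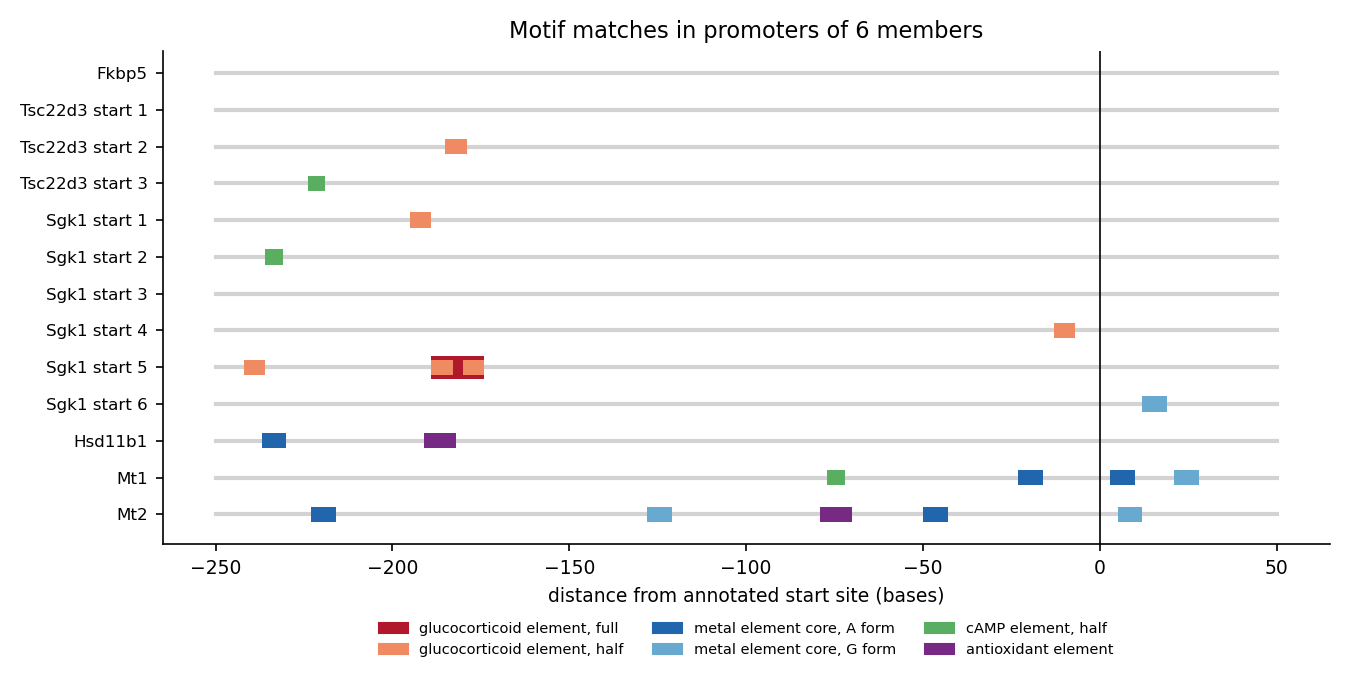
Motif matches along the 13 RefSeq promoters of 6 genes, by distance in bases from the annotated start site (0). Each grey line is 1 promoter and each coloured block 1 match; the full glucocorticoid element appears once, in the fifth Sgk1 promoter at -189, and of the metal element cores 4 lie in Mt2, 3 in Mt1, 1 in Hsd11b1 and 1 in Sgk1 promoter 6.

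By their labels, libraries differed more by replicate number than by time. For the median gene tested, the replicate number (6 levels) accounted for 72.0% of the variance of log2 CPM (counts-per-million of the scaled library total). The labelled time (3 levels) accounted for 3.78%, and a label of more levels takes a larger share by chance. Numbers 3 apart resembled each other, which gave 3 sets of 6 libraries, each with 2 libraries per labelled time: numbers 3 and 6, numbers 2 and 5, and numbers 1 and 4. The sets equal the labelled times in number and size, and they accounted for 62.7% of the variance for the median gene. Whether time and number labels were exchanged cannot be told from these files, so every comparison of times or sets below holds for the labels as given. The sets were recognised in these same libraries, so p-values between them are no independent evidence that sets exist. The labels do not say whether libraries are separate cultures, and p-values measure only the spread between libraries. Totals ran from 7010742 to 26501223 expected counts. The lowest was that of 24 h replicate 5, where transcripts that collect ribosomal RNA reads took 63.92% of counts, against 11.82% to 20.15% in the other libraries.

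Cell identity was checked with marker lists. Adipocyte markers summed to 6620 to 7940 CPM in numbers 3 and 6, 8350 to 10300 in numbers 2 and 5 and 9520 to 9930 in numbers 1 and 4. Lpl (mean 3030, 5230 and 4380 CPM in this order) and Fabp4 (2180, 1950 and 2770) were the largest parts. Adipoq was highest in numbers 3 and 6 (773, 594 and 443), and Plin1 was lowest in numbers 2 and 5 (176, 108 and 378). Cd36 (620, 889 and 1140) and Cidec (118, 176 and 169) were lowest in numbers 3 and 6. Pparg (130, 142 and 133) and Lipe (309, 302 and 278) spread less. The 8 brown adipocyte markers summed to 255 to 276, 230 to 252 and 269 to 288 CPM in these sets. Ucp1, the defining gene of brown fat, averaged 1.81, 10.5 and 15.8 CPM, while Cox8b ran the other way (4.78, 2.78 and 1.90). Dio2 (0.517, 0.273 and 2.44) and Prdm16 (10.2, 7.76 and 15.2) were lowest in numbers 2 and 5 and highest in numbers 1 and 4. Ppargc1a (131, 113 and 132), Ebf2 (106, 94.1 and 94.5) and Cidea (15.2, 13.9 and 14.2) spread less, and Elovl3 lay below the filter on low counts. Markers of preadipocytes and fibroblasts summed to 943 to 1210, 560 to 888 and 454 to 543 CPM. Nearly all of this was Col1a1 (mean 869, 551 and 434) and Pdgfra (142, 93.2 and 61.3). Each other marker of that list averaged at most 2.66 CPM in a set, and Pi16 ran the other way (0.153, 0.227 and 0.508). A list of 16 genes that cAMP induces at once summed to 472 to 515, 565 to 640 and 2230 to 3050 CPM. Egr1 was the largest part (mean 163, 174 and 1190 CPM). Pde4d (17.4, 35.5 and 14), Pde4b (10.3, 30.3 and 16.5) and Crem (5.87, 9.63 and 5.86) were instead highest in numbers 2 and 5. Markers of macrophages summed to 2.65 to 4.23 CPM over all libraries, nearly all of it Cd68, and those of endothelium and liver were at most 1.48 and 0.855 CPM. Skeletal muscle markers summed to 0.486 to 1.19, 2.13 to 2.99 and 3.37 to 4.20 CPM. This was almost wholly Acta1, which averaged 0.771 CPM in numbers 3 and 6 and 3.77 CPM in numbers 1 and 4 (log2 -2.24, edgeR adjusted p = 4.12e-12). Adgre1, C1qa, Cdh5, Myod1 and Ttr were at 0 in every library. Several of these sums move with the sets in which the 8 genes differ, and their part in those differences was not tested. In bulk RNA, fewer cells of a type and less RNA per cell cannot be told apart.

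Nr3c1 (chromosome 18, 39410545 to 39519421, minus strand, mm10), the receptor itself, was highest in numbers 2 and 5. Its lowest, median and highest values were 149, 154 and 163 CPM in numbers 3 and 6. They were 194, 207 and 215 CPM in numbers 2 and 5, and 163, 168 and 173 CPM in numbers 1 and 4. No value of one set fell within the range of another, although numbers 3 and 6 ended just below numbers 1 and 4. On the log2 scale Nr3c1 was higher by 0.29 (SE 0.03, edgeR adjusted p = 9.38e-09) in numbers 2 and 5 than in 1 and 4, and numbers 3 and 6 against 2 and 5 gave -0.41 (SE 0.03, adjusted p = 1.74e-11). Numbers 3 and 6 were lower than 1 and 4 by a small step, log2 -0.12 (SE 0.03, edgeR adjusted p = 0.00254), which turned to 0.05 when library totals were left unscaled.

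Fkbp5 (chromosome 17, 28399094 to 28517527, minus strand) encodes FKBP51, a co-chaperone that holds the receptor in a state of low hormone affinity and is itself a classic glucocorticoid target. It varied least. The lowest, median and highest values were 25.5, 27.4 and 28.2 CPM in numbers 3 and 6, against 21.9, 23.6 and 28.5 CPM in numbers 2 and 5 and 21.9, 24.8 and 25.6 CPM in numbers 1 and 4. The sets overlapped, and the highest value of numbers 2 and 5 was that of 24 h replicate 5, which rests on 86 counts. Numbers 3 and 6 were higher than 1 and 4 by log2 0.15 (SE 0.05, edgeR adjusted p = 0.00596) and higher than 2 and 5 by 0.20 (SE 0.05, adjusted p = 0.000842). Numbers 2 and 5 against 1 and 4 gave -0.05, with a 95% interval from -0.15 to 0.05 (edgeR adjusted p = 0.401). Sets explained 45.8% of the variance of log2 CPM of Fkbp5, the lowest share among the 8 genes. The first call was lost among numbers 1 to 3 alone (edgeR adjusted p = 0.0896) and among numbers 4 to 6 alone (0.106), the second among numbers 4 to 6 alone (0.0954).

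Hsd11b1 (chromosome 1, 193221634 to 193264075, minus strand) encodes the endoplasmic reticulum enzyme that regenerates active glucocorticoid. It separated the sets most. Values in numbers 3 and 6 ran from 6.91 over a median of 7.45 to 8.06 CPM. In numbers 2 and 5 they ran from 19.0 over 22.1 to 23.9 CPM, and in numbers 1 and 4 from 27.3 over 32.6 to 37.5 CPM. The 3 sets did not overlap at any point, and sets explained 98.3% of the variance of log2 CPM. Numbers 3 and 6 were 4.30-fold lower than numbers 1 and 4 (log2 -2.11, SE 0.07, edgeR adjusted p = 8.5e-19) and 2.95-fold lower than numbers 2 and 5 (log2 -1.56, SE 0.08, adjusted p = 3.61e-15). The size of the first difference exceeded that of 98.9% of all genes tested. Numbers 2 and 5 lay below 1 and 4 by a smaller step, log2 -0.54 (SE 0.07, edgeR adjusted p = 7.87e-08).

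Tsc22d3 (chromosome X, 140539528 to 140600659, minus strand) encodes GILZ, a leucine zipper protein that carries part of the anti-inflammatory action of glucocorticoids. It was high in numbers 1 and 4 alone, where the 6 libraries stayed between 24.5 and 25.8 CPM (25.2 ± 0.48, SD). The 6 libraries of numbers 3 and 6 had 14.1, 17.03 and 19.2 CPM as lowest, median and highest value, and numbers 2 and 5 had 13.5, 14.9 and 16.3 CPM. Both were lower than numbers 1 and 4 without overlap, by log2 -0.55 (SE 0.06, edgeR adjusted p = 2.24e-09) for numbers 3 and 6 and -0.77 (SE 0.06, adjusted p = 1.91e-11) for numbers 2 and 5. The values of numbers 3 and 6 overlapped with those of 2 and 5 and were higher by 0.21 (SE 0.06, edgeR adjusted p = 0.00529). Among numbers 4 to 6 alone that last difference was 0.06 (adjusted p = 0.661).

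Zbtb16 (chromosome 9, 48654297 to 48836222, minus strand) encodes PLZF, a zinc finger transcription factor that dexamethasone induces in many cell types. Its lowest, median and highest values were 28.8, 30.2 and 32.9 CPM in numbers 3 and 6 and 29.5, 31.9 and 33.6 CPM in numbers 2 and 5, against 40.0, 45.0 and 55.7 CPM in numbers 1 and 4. Numbers 1 and 4 thus stood above all other libraries. Numbers 3 and 6 were lower than 1 and 4 by log2 -0.57 (SE 0.05, edgeR adjusted p = 1.74e-10), and numbers 2 and 5 by -0.51 (SE 0.05, adjusted p = 4.66e-09). The other two sets overlapped, with a difference of -0.07 for numbers 3 and 6 against 2 and 5 and a 95% interval from -0.18 to 0.05 (edgeR adjusted p = 0.321). With library totals unscaled that difference turned to 0.20 (edgeR adjusted p = 0.366).

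Sgk1 (chromosome 10, 21882184 to 21999903, plus strand) encodes a kinase that acts on ion channels and FOXO factors and is induced within a short time of hormone. Values were 10.2, 11.01 and 13.04 CPM in numbers 3 and 6, then 12.6, 16.9 and 17.98 CPM in numbers 2 and 5 and 31.5, 32.6 and 38.9 CPM in numbers 1 and 4, each as lowest, median and highest. Numbers 1 and 4 stood apart, and a single library of numbers 2 and 5 (0 h replicate 2, at 12.6 CPM) reached into the range of numbers 3 and 6. Against numbers 1 and 4, Sgk1 was 2.98-fold lower in numbers 3 and 6 (log2 -1.58, SE 0.07, edgeR adjusted p = 7.88e-16) and 2.02-fold lower in numbers 2 and 5 (log2 -1.02, SE 0.07, adjusted p = 5.65e-12). Between the lower sets, numbers 3 and 6 against 2 and 5 gave log2 -0.56 (SE 0.08, edgeR adjusted p = 1.6e-06).

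**Figure D2:**
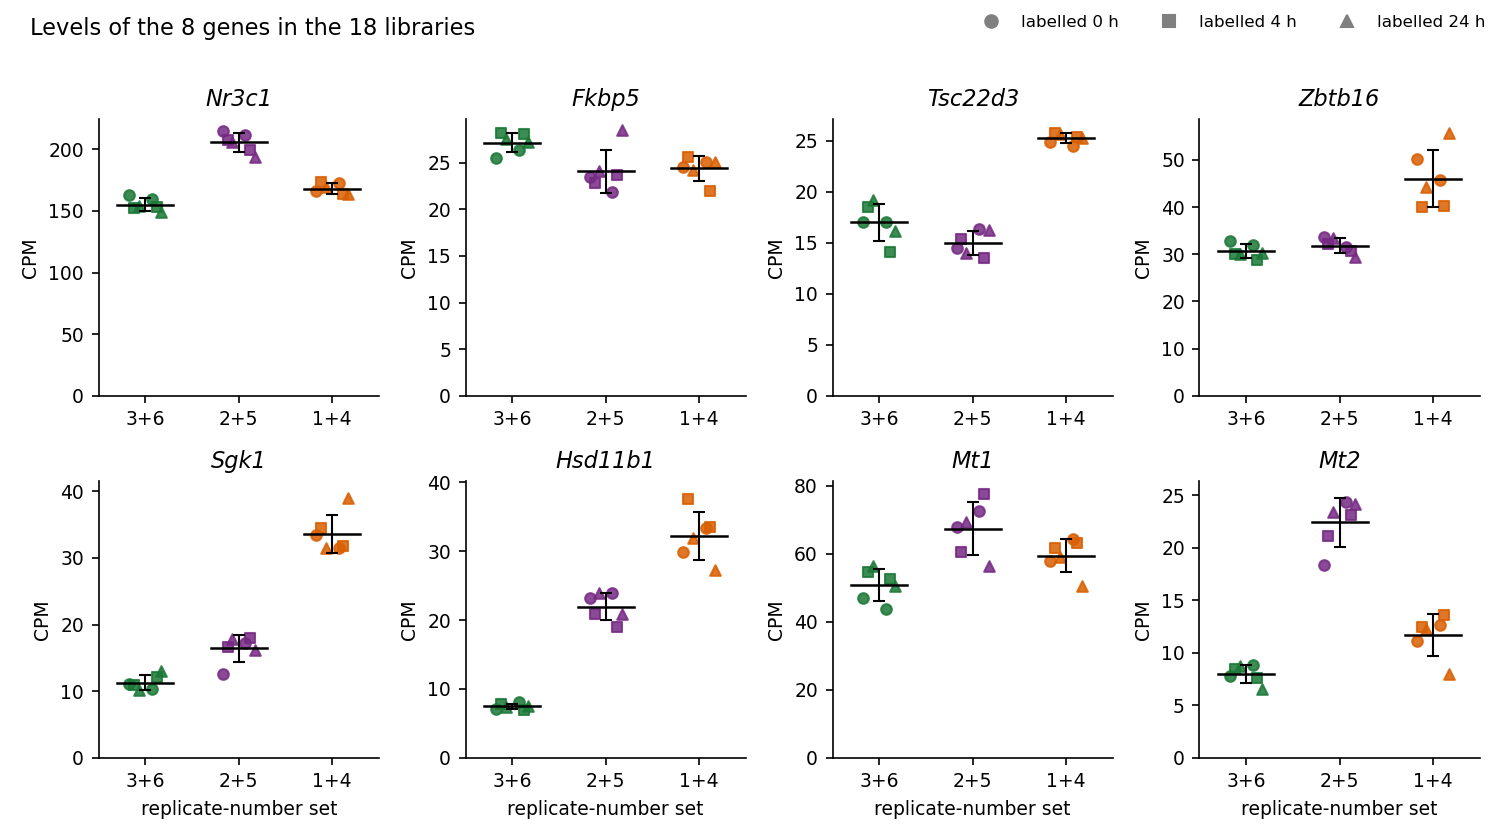
CPM of the 8 genes in each of the 18 libraries, by set of replicate numbers, with the labelled time as the marker shape. Lines and bars give mean ± SD (n = 6); Hsd11b1 steps from 7.46 over 21.95 to 32.2 CPM between sets, and Zbtb16 in numbers 1 and 4 is lowest in both 4 h libraries (40.0 and 40.2 CPM).

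Mt2 (chromosome 8, 94172664 to 94173568, plus strand) and Mt1 (94179082 to 94180327, plus strand) stand in tandem, 5513 bases apart. Mt2 had 6.56, 8.13 and 8.82 CPM as lowest, median and highest value in numbers 3 and 6, then 18.3, 23.2 and 24.4 CPM in numbers 2 and 5 and 7.98, 12.4 and 13.6 CPM in numbers 1 and 4. Numbers 2 and 5 stood above every other library. The remaining sets overlapped through a single value, 7.98 CPM in 24 h replicate 4. For Mt2 the log2 ratio from the fit was 0.90 (SE 0.09, edgeR adjusted p = 2.64e-08) for numbers 2 and 5 against 1 and 4. It was -0.56 (SE 0.10, adjusted p = 5.73e-05) for numbers 3 and 6 against 1 and 4, and -1.46 (SE 0.10, adjusted p = 2.51e-11) for numbers 3 and 6 against 2 and 5.

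Mt1 kept the same order of sets in a narrower span, with 43.8, 51.5 and 56.3 CPM in numbers 3 and 6, then 56.4, 68.5 and 77.4 CPM in numbers 2 and 5 and 50.6, 60.4 and 64.3 CPM in numbers 1 and 4. Numbers 1 and 4 overlapped with both other sets. The log2 fold change of Mt1 was 0.20 (SE 0.07, edgeR adjusted p = 0.024) for numbers 2 and 5 against 1 and 4, -0.23 (SE 0.07, adjusted p = 0.00932) for 3 and 6 against 1 and 4, and -0.43 (SE 0.07, adjusted p = 6.08e-05) for 3 and 6 against 2 and 5. The first call was lost among numbers 1 to 3 alone (adjusted p = 0.0578) and among numbers 4 to 6 alone (0.083). It was also lost without 0 h replicate 5 or 4 h replicate 5 (0.0563 each) and without 24 h replicate 2 (0.058). With library totals unscaled, Mt1 in numbers 3 and 6 against 1 and 4 was -0.06 (adjusted p = 0.828).

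The balance of the metallothioneins therefore differed as well. There were 0.159 ± 0.0243 Mt2 counts per Mt1 count in numbers 3 and 6, 0.337 ± 0.0542 in numbers 2 and 5 and 0.195 ± 0.0202 in numbers 1 and 4 (SD, n = 6). The ratio does not depend on how libraries are scaled. In numbers 2 and 5 it ran from 0.270 to 0.429, above the highest value of numbers 3 and 6 (0.202) and of numbers 1 and 4 (0.216). The sum of Mt1 and Mt2 was 58.8 ± 4.88, 89.8 ± 8.25 and 71.1 ± 6.90 CPM in the sets in the same order, and Mt1 was the larger part in each library.

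**Figure D3:**
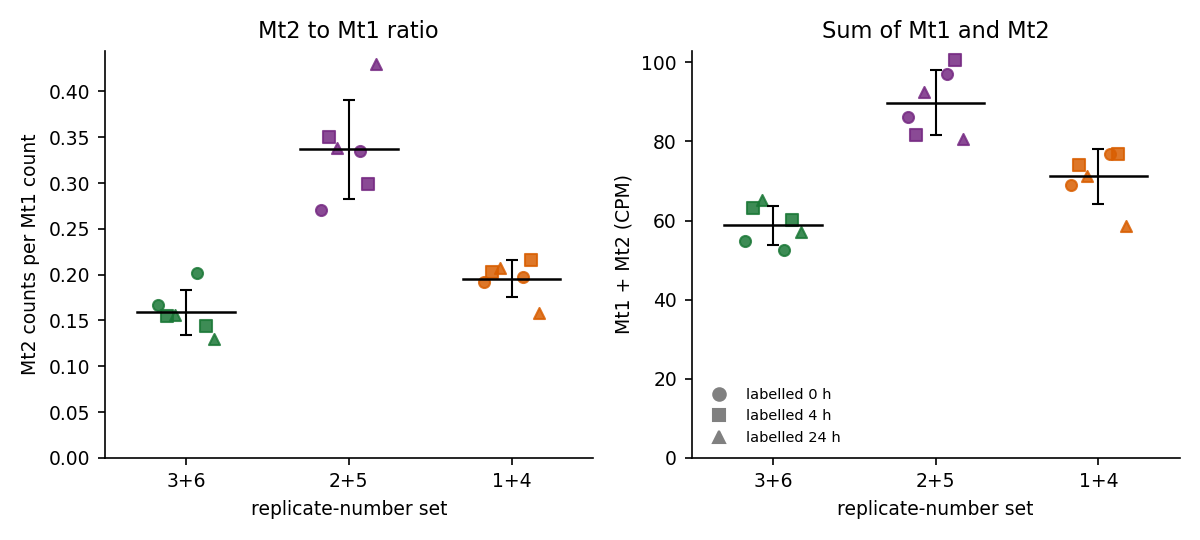
Mt2 counts per Mt1 count (left) and the sum of Mt1 and Mt2 in CPM (right) in each library, by set of replicate numbers, with mean ± SD (n = 6). The ratio of every library of numbers 2 and 5 (0.270 to 0.429) lies above every other library.

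Of the 8 genes, 8 were called in numbers 3 and 6 against 1 and 4, 1 higher and 7 lower. Across all genes tested 59.7% were called in that comparison, 30.2% as higher and 29.5% as lower. In numbers 2 and 5 against 1 and 4, 7 were called, 3 higher and 4 lower, beside 59.5% of all genes (29.6% higher, 29.9% lower). In numbers 3 and 6 against 2 and 5, 7 were called, 2 higher and 5 lower, beside 57.1% of all genes (28.6% higher, 28.5% lower). The sets did not overlap for 5, 6 and 4 of the 8 genes in these comparisons in that order, beside 38.6%, 35.3% and 29.8% of all genes. The median absolute log2 fold change of the 8 genes was 0.56, 0.53 and 0.42, and that of all genes 0.24, 0.24 and 0.23. The comparisons share libraries. The 8 genes and the sets were chosen with earlier results of these data known. Their counts and sizes beside those of all genes are thus a description and no independent evidence. With library totals left unscaled, 4, 5 and 4 of the 8 genes were called in the same order, and the calls of Nr3c1 and Mt1 were lost in each comparison in which they had stood. The loss also took in Fkbp5 and Mt2 for numbers 3 and 6 against 1 and 4, and Sgk1 for 3 and 6 against 2 and 5. With the 6 numbers kept apart, all 8 genes differed between numbers at an edgeR adjusted p of at most 0.0177 (Fkbp5), and so did 72.5% of all genes.

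**Figure D4:**
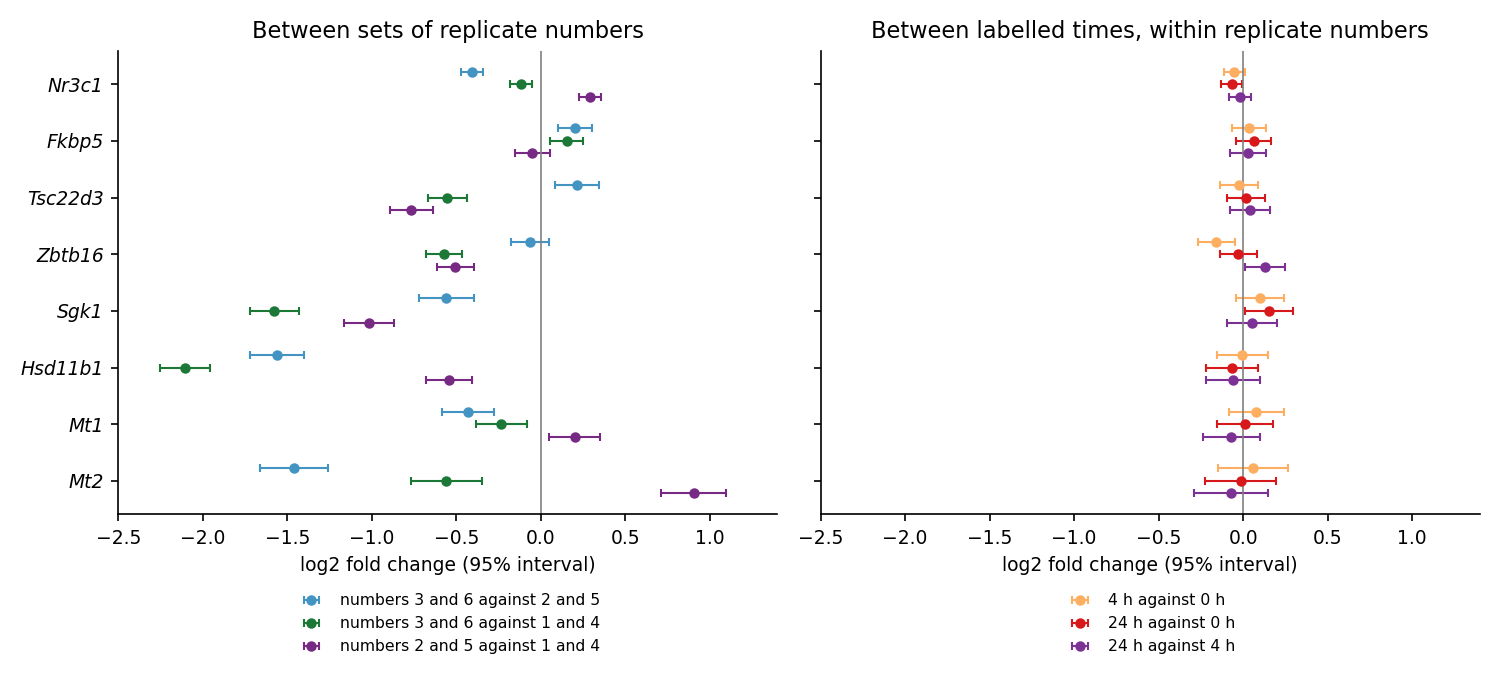
Log2 fold changes of the 8 genes with 95% intervals, between sets of replicate numbers (left) and between labelled times within replicate numbers (right). The left panel spreads from -2.11 (Hsd11b1, numbers 3 and 6 against 1 and 4) to 0.90 (Mt2, numbers 2 and 5 against 1 and 4), while the right panel stays between -0.16 and 0.15.

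Between labelled times none of the 8 genes was called, and none of the 14788 genes was (0% in each of the 3 comparisons). At an unadjusted p under 0.05 edgeR gave 173 genes for 4 h against 0 h, 158 for 24 h against 0 h and 137 for 24 h against 4 h. These were 1.17%, 1.07% and 0.926% of all genes, fewer than that threshold passes where no gene differs. The fit by time alone held no term for sets, so the spread between sets entered its errors. DESeq2 gave 0 calls with 190, 160 and 121 unadjusted, and limma-voom 0 with 224, 154 and 191. Times overlapped for all 8 genes, and did not overlap for 0.0676%, 0.0406% and 0% of all genes in the same order. For Nr3c1, means were 181 ± 25.2, 175 ± 23.7 and 173 ± 22.5 CPM at 0 h, 4 h and 24 h (SD, n = 6). Those of Sgk1 were 19.4 ± 10.5, 20.7 ± 10.0 and 21.3 ± 11.4 CPM, and those of Mt1 were 58.9 ± 11.6, 61.7 ± 8.75 and 57.0 ± 6.89 CPM.

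With the replicate number as a block, errors of the time comparisons fell and still none of the 8 genes passed. Among all genes 0%, 0.00676% (1 gene) and 0% were called for 4 h against 0 h, 24 h against 0 h and 24 h against 4 h. At an unadjusted p under 0.05 there were 1461, 1155 and 757 genes (9.88%, 7.81% and 5.12%). The member nearest to a call was Zbtb16, with a blocked log2 fold change of -0.16 at 4 h against 0 h (95% interval -0.27 to -0.05, edgeR adjusted p = 0.327), and it was lower at 4 h in all 6 numbers. Sgk1 at 24 h against 0 h had 0.15 (interval 0.01 to 0.30, adjusted p = 0.608) and was higher in 3 of 6 numbers. Nr3c1 at 24 h against 0 h had -0.07 (interval -0.13 to -0.0038, adjusted p = 0.614) and was higher in 1 of 6. For Mt2 the blocked intervals were -0.15 to 0.26 at 4 h and -0.23 to 0.20 at 24 h, both against 0 h. For Mt1 they were -0.08 to 0.24 and -0.15 to 0.17, and for Tsc22d3 -0.14 to 0.09 and -0.10 to 0.13.

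Within each labelled time the direction of the set differences held for 7 of the 8 genes. The exception was Fkbp5 in numbers 2 and 5 against 1 and 4, with log2 ratios of -0.13, -0.03 and 0.09 at 0 h, 4 h and 24 h. The turn at 24 h rests on 24 h replicate 5 (28.5 CPM, from 86 counts). In 24 h replicate 2 Fkbp5 had 24.1 CPM, below the 24 h mean of numbers 1 and 4 (24.7 CPM). For Hsd11b1 in numbers 3 and 6 against 1 and 4 the log2 ratios were -2.06, -2.27 and -1.99, and for Sgk1 -1.61, -1.52 and -1.60. Mt1 in the same comparison had -0.43, -0.22 and -0.04. The test of a set by time interaction called no member and 0% of all genes, with 415 at an unadjusted p under 0.05, Hsd11b1 among them (unadjusted p = 0.0273, edgeR adjusted p = 1). Interaction was tested with edgeR alone, on 2 libraries per set and time.

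Levels of different genes were compared per kilobase of exon, as mean CPM per kilobase. The length was the union of all annotated exons of a gene, whichever transcripts the cells made. For Mt1 that union (1246 bases) covers the whole span of the gene, and for Mt2 (588 bases) only a part. Values per kilobase of these 2 genes thus rest on unlike lengths, and the order of genes holds for these lengths only. Mt1 ranked first in every set, with 40.8 ± 3.83 in numbers 3 and 6, 54.0 ± 6.24 in numbers 2 and 5 and 47.7 ± 3.98 in numbers 1 and 4 (SD, n = 6). Nr3c1 (20.2, 26.7 and 21.9) and Mt2 (13.6, 38.1 and 19.9) followed, and their order turned: Mt2 was above Nr3c1 in numbers 2 and 5 and below it in numbers 3 and 6, while in numbers 1 and 4 they lay within the SD of Mt2 (3.38). Zbtb16 (5.81, 6.02 and 8.71) and Tsc22d3 (3.92, 3.46 and 5.81) came next in numbers 3 and 6. The lowest value in numbers 3 and 6 was that of Hsd11b1 (1.75), which in numbers 1 and 4 reached 7.58, above Sgk1 (6.86) by less than its own SD (0.825) and by more than that of Sgk1 (0.586). Fkbp5 stayed between 2.54 and 2.87.

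Across the 18 libraries the genes formed no single block. Pearson's r of log2 CPM, given as a description since libraries share their sets, was 0.932 for Nr3c1 with Mt2 and 0.794 for Mt1 with Mt2. It was 0.877 for Zbtb16 with Sgk1, 0.862 for Sgk1 with Hsd11b1 and 0.832 for Tsc22d3 with Zbtb16. Nr3c1 with Sgk1 had 0.0661, and Fkbp5 was negative with each of the other 7, down to -0.642 with Hsd11b1. Taken within sets, the strong positive values were smaller or turned: 0.112 for Nr3c1 with Mt2, 0.383 for Mt1 with Mt2, 0.0889 for Zbtb16 with Sgk1, -0.0298 for Tsc22d3 with Zbtb16 and -0.383 for Sgk1 with Hsd11b1. Nr3c1 with Sgk1 had -0.495 within sets, larger in size than over all libraries. Fkbp5 was positive within sets with Sgk1 (0.125) and Tsc22d3 (0.0615). Over all 18 libraries the receptor's pattern was thus nearest to that of Mt2 and not to those of Sgk1, Tsc22d3 or Zbtb16, which were all highest in numbers 1 and 4.

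The genes most like each member were ranked by Pearson's r over the 18 libraries among 8997 genes. Hsd11b1 was followed most closely by Ldha (lactate dehydrogenase A, r = 0.995), Gbe1 (glycogen branching enzyme, 0.993) and Lamb3 (a laminin chain, 0.993). Ldha had 171, 569 and 795 CPM in numbers 3 and 6, 2 and 5, and 1 and 4. For Sgk1 they were Fads3 (0.982), Stk35 (0.975) and Per1 (0.974), a clock gene that glucocorticoids and cAMP both induce, with 33.2, 43.5 and 72.2 CPM. Clstn3 (0.981), Tecr and Sdpr followed Tsc22d3, and Gdap10 (0.940), Knstrn and Rnf24 followed Zbtb16. Larp4b (0.979), Ssh2 and Zfp367 were nearest to Nr3c1, and Emp1 (0.967), Dbf4 and Rab5a to Mt2. Fkbp5 and Mt1 had looser companions, led by Psmb8 (0.902) and Gak (0.901).

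The Hsd11b1 locus held 2 patterns, one shared by Hsd11b1 and Lamb3 and another in G0s2. Hsd11b1 lies inside the span of Lamb3 (chromosome 1, 193207699 to 193343878, plus strand) on the other strand, with no shared exon, and Lamb3 averaged 4.84 ± 0.62, 17 ± 1.71 and 29.5 ± 2.52 CPM in numbers 3 and 6, 2 and 5, and 1 and 4 (SD, n = 6). G0s2 (193272161 to 193273217, minus strand), an inhibitor of adipose triglyceride lipase, lies 8085 bases from Hsd11b1, also within Lamb3. It had 129 ± 11.5, 27.3 ± 5.78 and 322 ± 23.3 CPM, and so was lowest in numbers 2 and 5. For numbers 3 and 6 against 2 and 5 it was higher by 2.31 on the log2 scale (SE 0.11, edgeR adjusted p = 5.47e-11), where Hsd11b1 had -1.56. Over the 18 libraries r was 0.106 for G0s2 with Hsd11b1. G0s2 was named after its values were seen.

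Other genes known to be induced by glucocorticoids were mixed. Of 26 tested in that list of 28, 3 were higher and 15 lower in numbers 3 and 6 against 1 and 4 (median log2 -0.39), and 10 were higher and 10 lower in numbers 2 and 5 against 1 and 4 (median 0.12). Numbers 3 and 6 against 2 and 5 had 4 higher and 18 lower (median -0.43). The median of all genes tested was between -0.01 and 0.01 in each. Calls made up 69.2%, 76.9% and 84.6% of the 26 in these comparisons in that order, beside 59.7%, 59.5% and 57.1% of all genes. Dusp1, a phosphatase that ends MAP kinase signals, fell to 28.4 ± 2.07 CPM in numbers 3 and 6 and 34.3 ± 1.72 in numbers 2 and 5, against 202 ± 12.2 in numbers 1 and 4 (log2 -2.82 and -2.54, edgeR adjusted p = 2.53e-27 and 1.58e-25). Per1 fell by 1.12 on the log2 scale in numbers 3 and 6 against 1 and 4 (SE 0.04, edgeR adjusted p = 1.12e-19). Pck1, the key enzyme of gluconeogenesis and glycerol synthesis, moved the other way, with 32.7 ± 2.30, 19.6 ± 2.12 and 9.90 ± 0.42 CPM in numbers 3 and 6, 2 and 5, and 1 and 4. Lpin1, a phosphatidate phosphatase, was lower in numbers 2 and 5 than in 1 and 4 by log2 -0.99 (SE 0.04, edgeR adjusted p = 5.47e-18). Dusp1 and Per1 are also in the list of genes that cAMP induces at once, of which 12 of 16 were lower and 1 higher in numbers 3 and 6 against 1 and 4. In numbers 2 and 5 against 1 and 4, 10 were lower and 4 higher (Pde4d, Pde4b, Crem and Sik1, log2 1.37, 0.89, 0.72 and 0.18). Numbers 3 and 6 against 2 and 5 had 13 lower and 1 higher. Calls made up 81.2%, 87.5% and 87.5% of that list in this order, beside the same shares of all genes as above.

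Of 17 chaperones and partners of the receptor that were tested, 10 were higher in numbers 3 and 6 than in 1 and 4, 1 was lower (Ncoa1, log2 -0.18) and 6 did not pass (median log2 0.17), beside 30.2% of all genes higher and 29.5% lower. In numbers 2 and 5 against 1 and 4, 6 were higher and 8 lower, and in numbers 3 and 6 against 2 and 5, 10 were higher and 3 lower. These calls made up 82.4% and 76.5% of the 17, beside 59.5% and 57.1% of all genes. Hsp90ab1, the chaperone that holds the receptor ready, had 574 ± 31.5 CPM in numbers 3 and 6 against 391 ± 7.26 in numbers 1 and 4 (log2 0.55, SE 0.04, edgeR adjusted p = 2.78e-13). Fkbp4, the co-chaperone that competes with FKBP51, had 86.3 ± 4.12 against 59.6 ± 2.41 CPM (log2 0.54, SE 0.04, edgeR adjusted p = 3.01e-13). H6pd, which supplies NADPH to the enzyme of Hsd11b1, was also higher, by 0.40 (SE 0.04, edgeR adjusted p = 1.2e-09), in the set where Hsd11b1 was lowest. In numbers 2 and 5 against 1 and 4 Bag1 was higher by 0.40 (SE 0.04, edgeR adjusted p = 1.71e-08), and Srd5a1, which reduces steroids, and Nr3c2, the mineralocorticoid receptor, were lower by log2 -0.42 and -0.39 (edgeR adjusted p = 0.00137 and 0.0139).

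Relatives and partners of the kinase and transcription factor members were also called in both directions, 2 of 13 higher and 8 lower in numbers 3 and 6 against 1 and 4, 5 and 5 in numbers 2 and 5 against 1 and 4, and 3 and 7 in numbers 3 and 6 against 2 and 5. That was 76.9% of the 13 in each comparison, beside 59.7%, 59.5% and 57.1% of all genes. Tsc22d1, a relative of Tsc22d3, had 158 ± 10.9 CPM in numbers 2 and 5 and 71.0 ± 1.50 in numbers 1 and 4 (log2 1.15, SE 0.04, edgeR adjusted p = 1.18e-19), where Tsc22d3 was lower. Sgk2, at 2.28 ± 0.29 and 2.72 ± 1.07 CPM in numbers 3 and 6 and numbers 2 and 5 against 0.84 ± 0.37 in numbers 1 and 4, was higher where Sgk1 was lower (log2 1.53 and 1.89, edgeR adjusted p = 1.75e-06 and 7.69e-08). Zbtb7b was lower by log2 -0.52 in numbers 3 and 6 against 1 and 4 (SE 0.04, edgeR adjusted p = 1.68e-12). The step was larger in numbers 2 and 5 against 1 and 4, at -0.75 (SE 0.04, edgeR adjusted p = 1.65e-15). Zbtb7c was lower by -1.67 in numbers 2 and 5 and by -0.75 in numbers 3 and 6, both against 1 and 4 (edgeR adjusted p = 7.82e-08 and 0.000534).

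Of 25 genes of zinc and copper handling tested in a list of 32, 7 were higher and 14 lower in numbers 3 and 6 against 1 and 4, and 3 were higher and 11 lower in numbers 2 and 5 against 1 and 4. In numbers 3 and 6 against 2 and 5 there were 6 and 11. Calls made up 84%, 56% and 68% of the 25 in this order, beside 59.7%, 59.5% and 57.1% of all genes. Slc39a6, a zinc importer, had 29.9 ± 2.06 CPM in numbers 3 and 6 and 28.6 ± 2.76 in numbers 2 and 5, against 19.7 ± 1.21 in numbers 1 and 4 (log2 0.59 and 0.52, edgeR adjusted p = 1.37e-11 and 4.77e-10). Slc31a1, the main copper importer, was lower in numbers 3 and 6 than in 1 and 4 by log2 -0.61 (SE 0.05, edgeR adjusted p = 4.09e-12). In numbers 2 and 5 against 1 and 4 it was lower by -0.24 (edgeR adjusted p = 5.56e-05). Atp7a, a copper exporter, was lower in numbers 2 and 5 than in 1 and 4 by -0.46 (SE 0.04, edgeR adjusted p = 7.96e-10). Numbers 3 and 6 against 1 and 4 gave -0.38 for Atp7a (edgeR adjusted p = 7.5e-09). Slc39a2 was higher by 0.56 in numbers 3 and 6 and by 0.92 in numbers 2 and 5, at 0.89 and 1.11 CPM against 0.57 CPM in numbers 1 and 4 (edgeR adjusted p = 0.037 and 0.00135). Mtf1, the zinc sensor that binds metal response elements, was higher in numbers 3 and 6 than in 1 and 4 by 0.14 on the log2 scale (edgeR adjusted p = 0.0245) and was named after its values were seen. Between labelled times no gene of these lists was called.

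**Figure D5:**
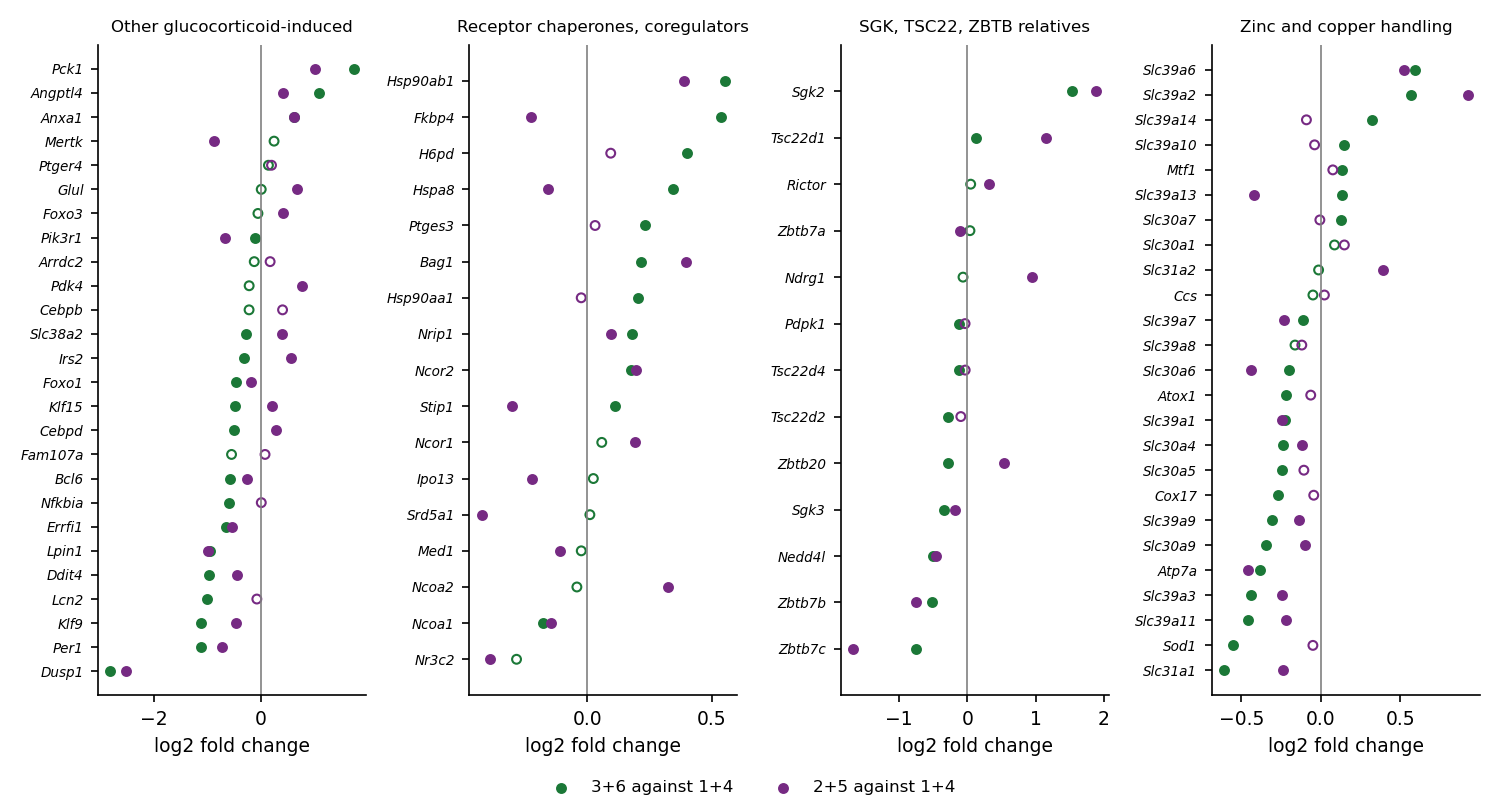
Log2 fold changes of the 4 lists beside the 8 genes, for numbers 3 and 6 against 1 and 4 (green) and numbers 2 and 5 against 1 and 4 (purple). Filled points were called by edgeR at an adjusted p under 0.05 and open points were not; each panel has its own scale, from Dusp1 at -2.82 to Pck1 at 1.74 in the first.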

How the data were processed

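Total RNA (250 ng a library) was fragmented, made into strand-selected cDNA, depleted of ribosomal RNA and sequenced as 52-bp read pairs, per the labels' protocols. The values are expected counts per gene that the authors estimated with salmon, merged over 18 libraries and deposited, per the labels. The submitters' processing notes name mm10, edgeR and limma; which salmon version, gene annotation and strandedness they used is not given in the sources used here. Among values above 0, 27.4% were not whole, and counts were rounded. Titles gave time and replicate number. The 8 genes, the sets of numbers and 13 lists of 152 genes were chosen with earlier results of these data known.

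Genes were kept by edgeR's filterByExpr (minimum count 10, minimum total 15), which kept at least 99.9% of counts in each library. edgeR 4.0.16 (R 4.3.3) with TMM scaling and its robust quasi-likelihood F-test was fitted to all 18 libraries, with time alone, with set and time, with number and time, and with the interaction of set and time. Benjamini-Hochberg adjustment ran over all genes tested, with a threshold of 0.05, after a check on simulated counts. Intervals are at 95%. CPM uses TMM-scaled totals, and correlations use log2 CPM with a prior count of 2. Alternatives were DESeq2 1.42.0, limma-voom (limma 3.58.1), other scaling, no filter, ribosomal transcripts left out, parts of the numbers, blocks, no time term and each library left out.

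Named genes were the 8 members and the 3 genes of highest Pearson r with each among those of mean log2 CPM of at least 3 (predicted, mitochondrial and unnamed genes left out). From each of the 4 lists beside the 8 genes, up to 3 called genes of largest absolute difference were named. This was done for numbers 2 and 5, and for numbers 3 and 6, against 1 and 4. Markers and genes that cAMP induces were not named by this rule but where a result touches them. Libraries with the same number in their titles deviated together: the correlation of their deviations from the group means was 0.297 to 0.718 in 18 pairs (median 0.59), against a median of -0.27 between libraries of other sets. Numbers 3 apart had 0.237 to 0.688 (median 0.569), close to the values of the same number. These deviations therefore follow the sets and do not show a pairing by number. The main time comparisons were not paired, and the replicate number entered as a block in an alternative fit. Counts behind a member's value in a library ran from 49 to 5074. Gene positions are those of GENCODE M21 on mm10. At most 1.75% of a member's 31-base words occur in transcripts of another gene, and the predicted gene Gm45774, antisense to Mt2 exons, was not analysed here. With strandedness of the counting not given, reads of Mt2 and Gm45774 cannot be told apart.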

Additional observations from a re-analysis of the deposited data

Results flagged for a closer look

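Each of the 8 genes was searched for a library standing apart from the other 5 of its set, and from the other 5 of its labelled time, by Dixon's gap test, which made 48 groups. There were 3 such values, all in groups by set. Chance gives about 1 in 20 groups where the libraries of a group vary alike. Groups by labelled time mix the sets, so that rate does not hold for them.

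Fkbp5 had 21.9 CPM in 4 h replicate 4, below the other libraries of numbers 1 and 4, which had 24.2 to 25.6 CPM. Fkbp5 had 28.5 CPM in 24 h replicate 5, above the other libraries of numbers 2 and 5, which had 21.9 to 24.1 CPM. That library had the lowest total and the largest share of ribosomal reads, and the value rests on 86 counts. Sgk1 had 12.6 CPM in 0 h replicate 2, below the other libraries of numbers 2 and 5, which had 16.2 to 17.98 CPM.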

How the results depend on the processing

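Between sets, 221 of 240 member values over 10 alternatives kept their direction and their side of the threshold, 15 lost their call and 4 turned. Between labelled times no member was called under any of the 9 alternatives, and 201 of 216 values kept their direction. The replicate block gave 1 gene for 24 h against 0 h and turned Hsd11b1 at 4 h (-0.0045) and Mt1 at 24 h (0.0099); the set block gave -0.0063 and 0.00077; it changed no other call. limma-voom gave 0.0018 for Tsc22d3 at 4 h and -0.0888 for Sgk1 at 24 h against 4 h. Unscaled totals called 3788 genes (1348 higher, 2440 lower) for numbers 2 and 5 against 1 and 4, 4536 (3404, 1132) for 3 and 6 against 1 and 4, with 4 members, and 5130 (4406, 724) for 3 and 6 against 2 and 5, with 4 members; the median gene moved by -0.09, 0.17 and 0.25. Nr3c1 turned to 0.0461 for 3 and 6 against 1 and 4 and Zbtb16 to 0.20 for 3 and 6 against 2 and 5. Hsd11b1 at 4 h gave -0.0110, Fkbp5, Tsc22d3 and Sgk1 at 24 h against 0 h -0.0851, -0.12 and -0.0226, and Fkbp5, Tsc22d3, Zbtb16 and Sgk1 at 24 h against 4 h -0.11, -0.0894, -0.0030 and -0.11. Leaving out 24 h replicate 5 as well, chosen after seeing the data, gave 8426, 9423 and 8463 genes, 7, 6 and 7 members, 0.0433 for Nr3c1, 0.0352 for Zbtb16, -0.0073 for Hsd11b1 at 4 h and -0.08 for Mt1 in 3 and 6 against 1 and 4 (edgeR adjusted p = 0.47).

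With each library left out in turn, genes called ranged from 0 to 1 for 4 h against 0 h and for 24 h against 4 h, the 1 coming without 4 h replicate 3. For 4 h against 0 h, values ran from -0.11 to 0.0029 (Nr3c1), -0.0032 to 0.0707 (Fkbp5), -0.13 to 0.0771 (Tsc22d3), -0.10 to 0.33 (Sgk1), -0.24 to 0.19 (Hsd11b1), -0.0092 to 0.14 (Mt1) and -0.13 to 0.30 (Mt2). For 24 h against 0 h they ran from -0.0644 to 0.13 (Tsc22d3), -0.16 to 0.0866 (Zbtb16), -0.12 to 0.37 (Sgk1), -0.30 to 0.0915 (Hsd11b1), -0.12 to 0.0250 (Mt1) and -0.33 to 0.18 (Mt2). For 24 h against 4 h they ran from -0.0775 to 0.0354 (Nr3c1), -0.0492 to 0.16 (Tsc22d3), -0.0020 to 0.20 (Zbtb16), -0.22 to 0.24 (Sgk1), -0.31 to 0.15 (Hsd11b1) and -0.38 to 0.0781 (Mt2). The cause of these changes was not tested. Time differences smaller than the intervals given could not be detected at this number of libraries, and values of Tsc22d3 and Sgk1 in 24 h replicate 5 rest on 49 counts each.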

Other observations

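Within numbers 1 and 4, 24 h replicate 4 held the lowest or highest value for 6 of the 8 genes. It was lowest for Nr3c1, Hsd11b1, Mt1 and Mt2 and highest for Sgk1 and Zbtb16. Its total was 11258673 expected counts and its share of ribosomal transcripts 20.15%. In 4 h replicate 1, the library of numbers 1 and 4 with 5 such extremes, Nr3c1, Fkbp5, Tsc22d3 and Hsd11b1 were highest and Zbtb16 lowest. No library of the other sets held more than 4.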
